A study of Mus musculus with 13 samples.

Results

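Conventional type 1 dendritic cells (cDC1) of the mouse liver were followed through a diet that injures the bile ducts. Cells were chosen from the raw counts of unique molecular identifiers (UMIs): barcodes with at least 1500 UMIs, at least 2 UMIs of Xcr1 and Clec9a together, at most 1 UMI each of Cd209a and Fscn1, and none of Siglech or Cd3e. This rule chose 5254 of 95563 cells in 13 libraries, and 4178 of 87083 cells in the 12 libraries of the diet atlas. The libraries were made by droplet-based 3′ single-cell RNA sequencing of C57BL/6J male mice aged 6 to 12 weeks, fed control chow (day 0, D0) or chow holding DDC at 0.1%, the compound 3,5-diethoxycarbonyl-1,4-dihydrocollidine, which brings on cholestasis and porphyria. D0 was taken as steady state with 2 libraries, D3 and D5 as onset with 4, and D9, D19 and D25 as progression with 6. On each day 1 library came from isolation protocol A and 1 from protocol B. Protocol A sorted CD45+, Lyve-1+, Pdpn+, Epcam+ and CD31+ Lyve-1- cells, live singlets and cells with retinoid autofluorescence, whereas protocol B sorted CD45+ Itgax+ CD64-, Epcam+ and CD3e+ Lyve-1- cells and live cells of a stellate cell preparation. The protocol B library counted as D19 is labelled day 18. A further library, STOP, was made with protocol B after 18 days of DDC diet and 7 days of recovery. No genotype or agent other than the diet differed between the groups. The labels do not say which mouse entered which library, nor whether the A and B libraries of a day share mice, so that spreads and p-values below measure variation between libraries, which may not all be independent.

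cDC1 are the dendritic cells that take up dying cells and present their antigens on MHC class I to CD8 T cells. Their development depends on the transcription factors Batf3 and Irf8. Clec9a, a receptor for the actin of dead cells, Xcr1, the receptor for the chemokine Xcl1, Wdfy4, needed for cross-presentation, and Naaa, a lysosomal amidase, mark them in mouse tissues.

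The label was checked first, on the markers that the rule did not use. In protocol B, 85.9% to 96.4% of the chosen cells per atlas library had a Naaa or Wdfy4 UMI, whereas in protocol A it was 29.2% to 69.8%. Cd209a-chosen DC, a set of other dendritic cells defined below, had them in 48.8% to 94.5%, so that this measure separates dendritic cells from other cells more than cDC1 from other dendritic cells. The chosen cells of protocol A were mixed. Xcr1 was detected in 15.2% to 65.0% of them per library, against 64.4% to 93.1% in protocol B. Among the cells of protocol A with no Xcr1 UMI, which the rule had taken on Clec9a alone, 80.8% to 92.1% had at least 3 UMIs over 5 endothelial genes (Stab2, Clec4g, Kdr, Oit3 and Egfl7), and 12.5% to 32.1% had Naaa or Wdfy4. Among the Xcr1-positive cells of protocol A, 77.1% to 97.9% had Naaa or Wdfy4. Endothelial genes, by the same criterion, were found in 18.8% to 34.3% of the Xcr1-positive cells of protocol A, 1.75% to 19.6% of those of protocol B and 21.8% of those of STOP. At least 3 UMIs of 8 macrophage genes were found in 37.6% to 85.9% of all chosen cells of protocol A and 64.9% to 81.7% of those of protocol B. The name cDC1 was therefore kept for Xcr1-positive cells (665 in protocol A, 2201 in protocol B and 1015 in STOP), of which a part carried such UMIs, and went against the data for most Xcr1-negative cells of protocol A. Results below are given for all chosen cells and in part, as an alternative added after seeing the data, for Xcr1-positive cells. The number of chosen cells by Xcr1 detection is plotted per library.

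**Figure D1:**
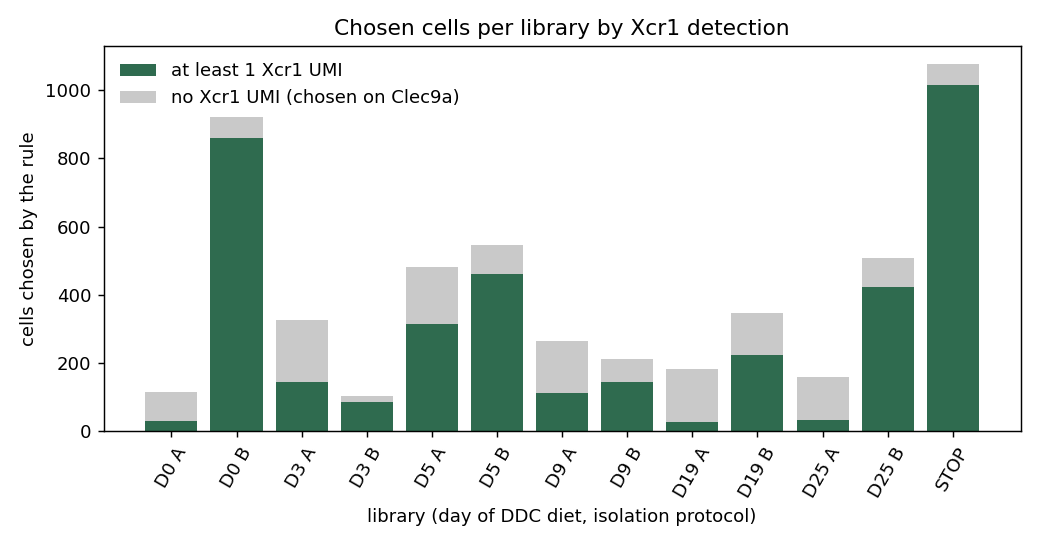
Number of cells chosen by the rule (y axis) in each library (x axis: day of DDC diet and isolation protocol, STOP for recovery), split into cells with at least 1 Xcr1 UMI (green) and with none (grey). D0 A holds 32 Xcr1-positive cells of 117, D19 A 28 of 184 and D25 A 35 of 161, whereas D0 B holds 859 of 923.

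The threshold itself fell in different places in the protocols. In D0 A, the 501 cells just outside it, with 1 UMI of Xcr1 or Clec9a, had Naaa or Wdfy4 in 10.8% and endothelial genes in 82.4%, and the 77 cells just inside it, with 2 UMIs, had them in 14.3% and 76.6%. The 24 cells with 4 or more UMIs had them in 95.8% and 20.8%. In D0 B, 67.9% of the 321 cells with 1 UMI and 91.8% of the 183 cells with 2 UMIs had Naaa or Wdfy4. Depth differed as well, with a median of 4814 to 14035 UMIs per chosen cell in protocol A and 7719 to 21930 in protocol B. Thinned to 1500 UMIs per cell, Naaa was found in 35.7% to 73.3% of Xcr1-positive cells over the 13 libraries, against 7.16% to 20% of Cd209a-chosen DC, and unthinned in 51.4% to 97.7% against 30.5% to 69.0%. Libraries held 29307190 to 108602421 UMIs in all, and of their 78 pairs 5 shared a barcode among the chosen cells, 1 each. No doublet caller was run, and the rule keeps cells with 1 UMI of Cd209a or Fscn1.

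Levels are given as CPM, the UMIs of a gene relative to all UMIs of the chosen cells of a library, scaled by the trimmed mean of M-values (TMM), which takes the makeup of each sum into account. Among all chosen cells Xcr1 was at 196 CPM in D0 A and 544 in D0 B, with a range of 31.9 to 330 CPM over the 10 DDC libraries. Clec9a lay at 265 and 338 CPM at D0 and at 131 to 265 during DDC. These genes chose the cells, and their levels are a description. Markers of other cell types were present beside them. The summed level of 8 macrophage genes (C1qa, C1qb, C1qc, Cd5l, Clec4f, Vsig4, Lyz2 and Adgre1), as plain CPM, was 6952 in D0 A, 1096 in D0 B, 1499 to 2944 at onset and 2307 to 16103 in progression, where D19 A was highest. None of the 8 was at 0 in any library. Summed endothelial genes lay at 1041 to 1948 CPM in protocol A and 34.6 to 508 in protocol B. Among Xcr1-positive cells the macrophage genes were at 3157 CPM in D0 A, 998 in D0 B and 14088 in D19 A. Over all chosen cells summed biliary genes (7) were at 2690 CPM in D0 A and 43.5 in D0 B. In protocol A they were at 49.9 and 114 at onset and 139 to 2951 in progression. In protocol B they were at 2120 and 2637 and then 3081 to 4726. Fits without cells of other lineages are given where they bear on a call. Here these are cells with at least 3 UMIs of macrophage, B-cell, T- or NK-cell, neutrophil or plasmacytoid DC genes. Cells with endothelial, hepatocyte or biliary UMIs were kept in these fits.

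To ask which genes of the chosen cells differ between DDC diet and steady state, sums per library were fitted with edgeR's quasi-likelihood test with stage and protocol as terms. DDC raised Ccl9 and lowered Mup3 and Serpina1e in the chosen cells, and these were the 3 genes called among 12500 tested (0.024%) at an adjusted p of 0.05. Ccl9 encodes a chemokine of myeloid cells that binds Ccr1. It was at 8.73 CPM in D0 A and 3.46 in D0 B, at 27.9 (A) and 32.7 (B) on D3 and 37.8 and 38.1 on D5, and in progression at 46.8 to 139 with a median of 61.7. All 10 DDC libraries lay above both D0 libraries, and the highest values were those of D19 A and D25 A. There 85.9% and 70.8% of the chosen cells held at least 3 UMIs of the 8 macrophage genes, against 37.6% in D0 A and 64.9% in D0 B. D25 B, with a lower Ccl9 level, had 81.7%. These shares were not thinned and depend on depth. The median UMIs per chosen cell were 4814 in D0 A, 7719 in D0 B, 11810 in D19 A, 7070 in D25 A and 15086 in D25 B. By the summed level of these genes, given above, D0 A lay above D0 B. The part of macrophage RNA in the Ccl9 change was not tested. The log2 fold change was 3.25 (SE 0.45, adjusted p = 0.0376). Within protocol A it was 2.74 (adjusted p = 0.135) and within protocol B 3.59 (adjusted p = 0.0014). In Xcr1-positive cells Ccl9 was listed at 0 in D0 A and at 1.90 CPM in D0 B, against 13.6 to 209 during DDC, and missed the threshold (log2 fold change 4.31, SE 0.82, adjusted p = 0.0679). The call was also lost without D0 B, D3 B, D5 A, D9 B, D19 B, D25 A or D25 B, with adjusted p between 0.0534 and 0.0978, and without the protocol term (3.23, adjusted p = 0.248) or with the rule applied to thinned cells (3.39, adjusted p = 0.388). Without cells holding at least 3 UMIs of macrophage, B-cell, T- or NK-cell, neutrophil or plasmacytoid DC genes, which left 11 libraries, Ccl9 was too low to be tested.

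Mup3 and Serpina1e encode proteins that hepatocytes secrete, a major urinary protein and an alpha-1 antitrypsin. Mup3 was at 70.7 CPM and 10.2 CPM in D0 A and D0 B, against 0 to 13.7 during DDC (log2 fold change -4.64, adjusted p = 0.00852). Serpina1e was at 108 and 9.80 CPM and then at 0 to 20.4 (log2 fold change -4.38, adjusted p = 0.0187). Both genes had no or hardly any UMIs from D9 on. Neither was called without the protocol term (adjusted p = 0.217 for each), nor without cells of other lineages or with the rule on thinned cells, where Mup3 was too low to be tested and Serpina1e had an adjusted p of 0.065 and 0.106. Serpina1e was also lost without D9 B (adjusted p = 0.0528). In all other cells of the D0 libraries Mup3 was at 126 CPM (A) and 71.8 CPM (B), above the chosen cells, and at 0.043 to 22.6 CPM in those of the DDC libraries. The 9 hepatocyte genes of the marker list summed to 2264 plain CPM in D0 A, 54.4 in D0 B and 278 to 2369 during DDC in the chosen cells. The part of free hepatocyte RNA in this result was not tested.

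Xcr1-positive cells gave 14 calls of 11378 genes (0.123%), of which 12 fell and 2 rose. Pianp, a membrane protein and a marker that sets cDC1 apart from other dendritic cells, fell. It was at 118 CPM in D0 A and 105 in D0 B, at 42.4 and 29.1 on D3 (A and B), at 30.5 and 32.0 on D5 and at 21.9 to 43.9 in progression. Every DDC library lay below both D0 libraries (log2 fold change -1.84, SE 0.21, adjusted p = 0.00341). Over all chosen cells the change was -1.76 with an adjusted p of 0.0622. Qpct, glutaminyl cyclase, an enzyme that modifies the start of chemokines and other peptides, fell from 116 and 190 CPM to 27.5 to 58.3 (log2 fold change -1.998, SE 0.25, adjusted p = 0.00545). Among all chosen cells its adjusted p was 0.0767. Cd1d1, which presents lipids to NKT cells, fell from 20.5 and 52.7 CPM to 5.49 to 14.5 (log2 fold change -1.84, adjusted p = 0.0453), and Xlr, a lymphoid nuclear protein, from 63.8 and 223 to 5.24 to 49.7 (log2 fold change -2.82, adjusted p = 0.0251). The groups did not overlap for Pianp, Qpct, Cd1d1 and Xlr. Here and below, the share of all genes tested whose groups do not overlap was not counted.

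Of the remaining calls, Cyp8b1, an enzyme of bile acid synthesis, was at 15.9 and 95.5 CPM in D0 A and D0 B, and at 0 to 14.4 during DDC (log2 fold change -3.44, adjusted p = 0.00915). Its median in Cd209a-chosen DC over the 12 libraries was 0 CPM and in Xcr1-positive cells 4.53. Supt3, a subunit of a coactivator complex, and Ebf1, a B-cell factor, fell as well (log2 fold changes -1.62 and -4.57), as did Mup3 and Serpina1e. Pros1, a bridging protein between dying cells and the receptor Mertk, rose from 13.7 and 3.04 CPM to 14.1 to 53.7 (log2 fold change 2.21, adjusted p = 0.0453). Ttll7, a tubulin-modifying enzyme, rose from 0 and 0.19 CPM to 3.18 to 19.9 (adjusted p = 0.037). Over all chosen cells Pros1 stood at 134 CPM in D0 A but 3.65 in D0 B. The endothelial genes of the Xcr1-positive sums were at 96.8 and 32.5 CPM at D0 against 43.9 to 472 during DDC. Without the Xcr1-positive cells that held at least 3 endothelial UMIs, Pros1 missed the threshold (log2 fold change 1.19, adjusted p = 0.586) and Ttll7 was too low to be tested. In that fit Cd1d1 (adjusted p = 0.0614) and Ebf1 (adjusted p = 0.0742) missed it as well, whereas Pianp (adjusted p = 0.00901), Qpct (adjusted p = 0.0208), Xlr (adjusted p = 0.00954) and Cyp8b1 (adjusted p = 0.0106) fell and Ccl9 rose (adjusted p = 0.042). Summed B-cell genes, which bear on Ebf1, were at 142 and 308 plain CPM at D0 and 44.1 to 170 during DDC, and their part was not tested. The Xcr1-positive sum of D0 A rests on 32 cells. The other called genes are predicted genes without a name.

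The number of calls depended on the steady-state libraries, with 1552 without D0 A (947 higher, 605 lower) and 22 without D0 B (1 higher, 21 lower) in the chosen cells. Within protocol A, 13 of 11911 genes (0.109%) were called, 1 higher and 12 lower, and within protocol B 1718 of 12820 (13.4%), 1017 higher and 701 lower. In Xcr1-positive cells it was 7 of 8913 (0.0785%), all lower, and 1385 of 12105 (11.4%), 818 higher and 567 lower. The balance of directions thus turned with the protocol and with D0 A. Each of these fits holds 1 D0 library, whose spread was taken to be that of the others. Of the genes tested in both protocols, 2448 of 11507 (21.3%) were higher and 1699 (14.8%) lower under DDC in both, and the rest went opposite ways. Over all chosen cells D0 A and D0 B stood far apart for several genes. One was Cd74, the MHC class II invariant chain, with 6289 CPM in D0 A and 86138 in D0 B. The DDC libraries lay between 2627 and 26411 CPM, so that Cd74 was lower than D0 in protocol B (adjusted p = 0.0161) and not in protocol A.

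**Figure D2:**
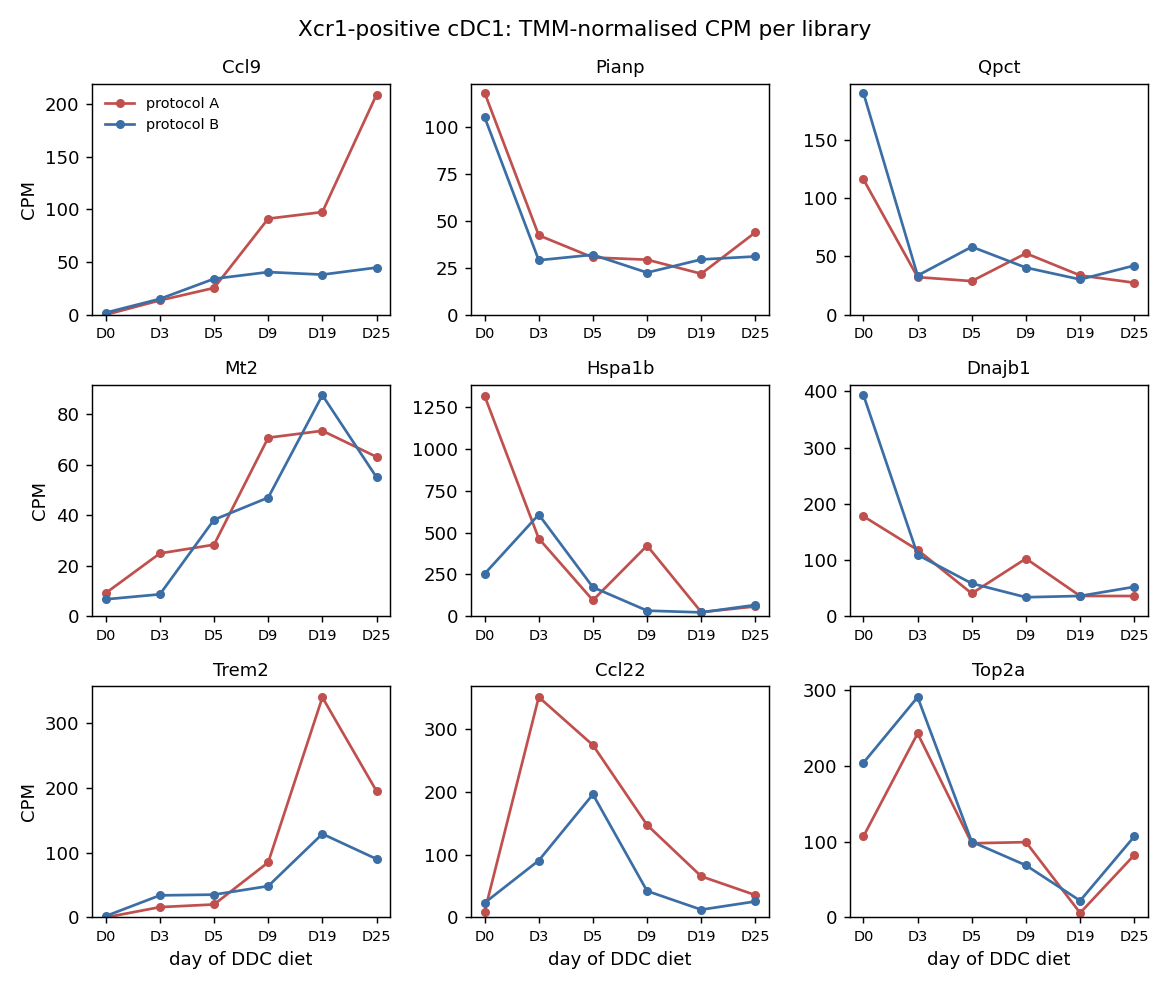
TMM-normalised CPM in Xcr1-positive cells (y axes from 0, separate for each gene) by day of DDC diet (x axis) for 9 genes, protocol A in red and protocol B in blue, each point 1 library. Ccl9 and Trem2 lie above both D0 libraries on every DDC day, and Pianp and Qpct below them. Ccl22 is at 90.9 to 352 CPM on D3 and D5, where D9 A, at 148 CPM, overlaps.

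Gene lists were described by how many members went the same way in each protocol against its own D0 library, and the background for lower in both is 14.8% of genes. The immediate early and heat shock list had 24 of 32 members (75.0%) lower under DDC in both protocols and 1 higher, with medians of -0.68 in A and -0.61 in B on the log2 scale, against medians of 0.03 and 0.13 over all genes. These genes are known to respond to cell stress, dissociation included. No member was called in the fit of all chosen cells over both protocols. In Xcr1-positive cells 23 of 32 were lower in both protocols, beside 17% of all genes, and 29 of 32 had a negative change in the fit over both, against 5576 of 11378 genes tested. Among all chosen cells Hspa1b, an inducible Hsp70, was at 1374 CPM in D0 A and 281 in D0 B. It was at 621 and 613 on D3, 91.9 and 184 on D5 and 14.7 to 413 in progression. Dnajb1, a cochaperone of Hsp70, was at 159 and 422 CPM at D0 and 34.4 to 109 during DDC, with no overlap, and its log2 fold change was -2.22 (SE 0.38, adjusted p = 0.138). Without cells of other lineages Dnajb1 fell (-2.46, adjusted p = 0.0138), and it and the linker histone H1f5, which fell too, were the 2 genes called of 6721 (0.0298%). That fit kept cells with endothelial UMIs and left 11 libraries, with 22 to 34 cells in D9 B, D19 A, D25 A and D25 B. In the fit over both protocols the transcription factors Jund (1254 and 3111 CPM at D0, 609 to 1095 during DDC) and Klf2 (823 and 1602 against 245 to 807) did not overlap either, and their adjusted p were 0.157 and 0.189.

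Of the type I interferon list 18 of 39 members (46.2%) and of the interferon gamma list 8 of 17 (47.1%) were lower in both protocols, and none was higher in both. In Xcr1-positive cells 13 of 32 and 5 of 13 were lower, and 3 and 1 were higher, with protocol A medians of -0.31 and -0.04 against -0.65 and -0.59 over all chosen cells. Over all chosen cells the transcription factor Irf7 (103 and 233 CPM at D0, 34.3 to 94.0 during DDC) lay below D0 in all DDC libraries. It did not pass the test, with a log2 change of -1.33 (SE 0.31, adjusted p = 0.199). For Irf1 the log2 fold change was -0.98 (SE 0.24, adjusted p = 0.199). The innate sensor list had 4 of 18 members higher and 5 lower in both protocols (6 and 5 of 16 in Xcr1-positive cells). Of its members Tlr12, which with Tlr11 recognises profilin of protozoa, was at 45.4 and 46.9 CPM at D0 in all chosen cells. During DDC it lay at 5.16 to 31.9, and its adjusted p was 0.19.

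Genes of dead-cell uptake, lipid handling and heme were split between the protocols. Of the uptake and lipid list 11 of 25 members (44.0%) and of the heme, iron and antioxidant list 9 of 26 (34.6%) were higher in both protocols, beside 21.3% of all genes, while 10 and 16 went opposite ways. In Xcr1-positive cells it was 14 of 25 and 11 of 25, beside 22.7%, with 6 and 14 going opposite ways. Among all chosen cells Trem2, a lipid receptor of macrophages, was at 5.24 and 3.65 CPM at D0, 23.7 to 51.5 at onset and 66.0 to 332 in progression (log2 fold change 4.08, SE 0.77, adjusted p = 0.156). In the same cells Gpnmb, a lysosomal glycoprotein of lipid-laden phagocytes, had no UMI in D0 A and was at 0.19 CPM in D0 B, against 7.75 to 164 during DDC (adjusted p = 0.193). Of the 8 macrophage genes 1 was higher under DDC in both protocols and 7 went opposite ways, with medians of -0.52 in A and 1.07 in B, and in Xcr1-positive cells 6 were higher in both. Their part in these values was not tested. Apol7c, reported to act in antigen escape from phagosomes of cDC1, went the other way. It was at 11.4 and 69.4 CPM at D0 in all chosen cells, 16.6 and 49.0 on D3, 1.55 and 0.18 on D5 and at most 0.61 from D9 on. Mt2, a metallothionein that binds zinc and copper, was at 61.1 and 7.30 CPM in D0 A and D0 B, and at 40.1 to 222 during DDC. In Xcr1-positive cells its levels were 9.11 and 6.66 CPM at D0 and 8.63 to 87.6 during DDC, where the D3 B library lay among the D0 values (log2 fold change 2.47, SE 0.52, adjusted p = 0.0874).

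Genes of antigen presentation differed by protocol. The MHC class II list had a median of 0.46 in A and -1.20 in B, and 3 of 13 members were lower in both. The MHC class I and cross-presentation list had medians of -0.05 and -0.72 with 7 of 21 lower in both. The cDC1 identity list, which holds the genes of the rule, had 12 of 25 lower in both. The cell cycle list had a median of 0.49 in A and -0.91 in B. The medians of each list are plotted by protocol.

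**Figure D3:**
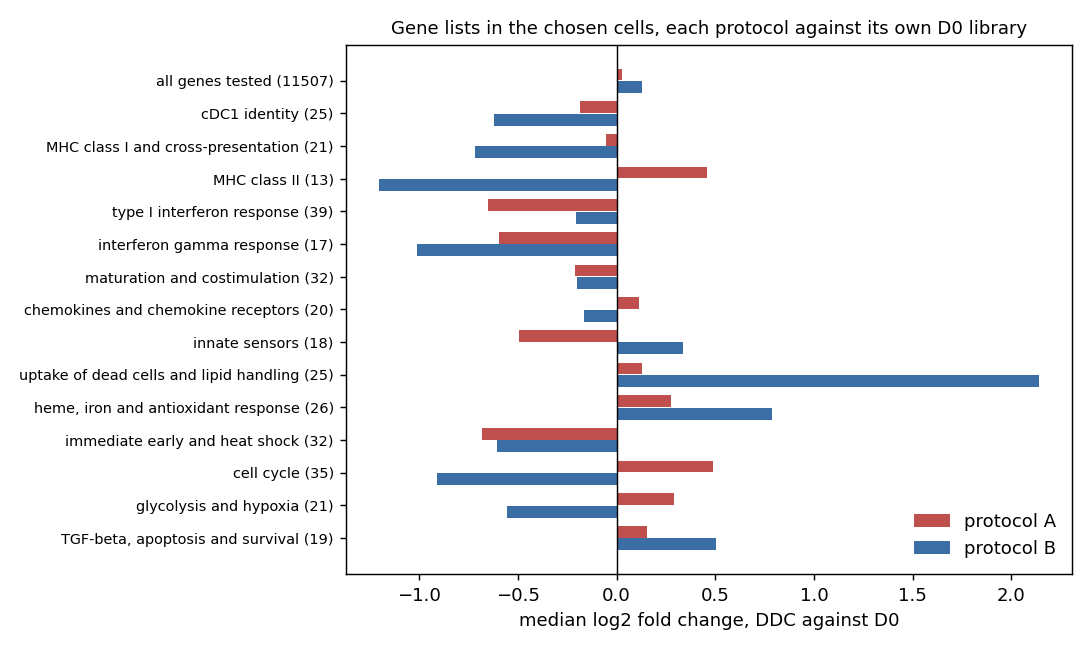
Median log2 fold change (x axis) of each gene list (y axis, with the number of members tested in both protocols) in the chosen cells, DDC libraries against the D0 library of the same protocol, protocol A in red and protocol B in blue. The immediate early and heat shock list is at -0.68 and -0.61, whereas MHC class II (0.46 and -1.20) and cell cycle (0.49 and -0.91) have opposite signs.

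Promoters are shown for Ccl9, for the metallothioneins Mt1 and Mt2, whose DDC change is compared between DC types further on, and for Hspa1a and Hspa1b, heat shock genes of the list above. Sequences run from 250 bases before to 50 after the gene start (RefSeq, GRCm38.p6) and are written 5′ to 3′ on the strand of the gene. Capitals in Mt1 and Mt2 mark TGCACNC or TGCGCNC, the core of the metal response element. In Hspa1a and Hspa1b they mark GAANNTTC, a pair of heat shock element units. In Ccl9 they mark TGANTCA, a loose pattern that takes in the AP-1 motif but allows any base at its centre, which is A here. Each was searched on both strands.
Ccl9, chr11:83578587-83578886, minus strand: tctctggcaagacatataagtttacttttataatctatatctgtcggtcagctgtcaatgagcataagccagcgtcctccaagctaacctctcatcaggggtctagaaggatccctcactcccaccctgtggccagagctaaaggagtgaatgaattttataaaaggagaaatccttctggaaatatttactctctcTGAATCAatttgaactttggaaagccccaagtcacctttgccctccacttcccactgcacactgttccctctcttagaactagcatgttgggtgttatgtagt
Mt1, chr8:94178839-94179138, plus strand: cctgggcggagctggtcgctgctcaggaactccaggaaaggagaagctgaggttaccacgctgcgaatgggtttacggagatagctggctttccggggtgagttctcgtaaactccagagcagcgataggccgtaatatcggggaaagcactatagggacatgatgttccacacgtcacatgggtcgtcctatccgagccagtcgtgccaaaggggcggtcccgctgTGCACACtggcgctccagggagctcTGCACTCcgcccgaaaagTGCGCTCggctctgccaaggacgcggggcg
Mt2, chr8:94172368-94172667, plus strand: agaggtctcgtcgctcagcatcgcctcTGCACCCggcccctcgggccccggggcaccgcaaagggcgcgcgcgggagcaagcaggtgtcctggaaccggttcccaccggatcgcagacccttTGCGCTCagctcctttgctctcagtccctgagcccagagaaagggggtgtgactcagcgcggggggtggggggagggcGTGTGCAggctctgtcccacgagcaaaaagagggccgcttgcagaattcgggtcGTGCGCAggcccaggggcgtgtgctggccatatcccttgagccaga
Hspa1a, chr17:34972107-34972406, minus strand: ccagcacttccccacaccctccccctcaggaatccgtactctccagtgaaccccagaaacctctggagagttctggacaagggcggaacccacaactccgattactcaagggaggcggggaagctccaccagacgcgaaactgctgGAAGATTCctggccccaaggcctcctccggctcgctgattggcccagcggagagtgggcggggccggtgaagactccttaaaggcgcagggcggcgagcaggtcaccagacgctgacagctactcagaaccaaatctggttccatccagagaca
Hspa1b, chr17:34959189-34959488, minus strand: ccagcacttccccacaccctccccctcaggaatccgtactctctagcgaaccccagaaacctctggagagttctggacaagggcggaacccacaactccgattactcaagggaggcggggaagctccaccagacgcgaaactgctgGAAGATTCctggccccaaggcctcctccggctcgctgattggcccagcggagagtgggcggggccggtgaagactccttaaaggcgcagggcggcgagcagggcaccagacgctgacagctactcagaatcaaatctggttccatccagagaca
The metal response core was found 3 times in the window of Mt1 and 4 times in that of Mt2. It occurs in 25.7% of 32851 promoter windows, and 3 or more times in 1.97%. GAANNTTC occurs in 7.86% of windows and TGANTCA in 7.81%. The 2 windows of Dnajb1 hold no GAANNTTC and the 3 of Pianp no TGANTCA, and these are not printed. TTCNNNGAA, the interferon gamma activated site, was not found in the 5 windows printed and occurs in 8.30% of all. The windows of Hspa1a and Hspa1b differ at 4 of 300 bases, and reads of these near-identical genes may have been divided between them by the counting.

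Onset was compared with steady state to find genes that differed early. Over all chosen cells 0 of 12500 genes (0%) were called by edgeR, with 843 at an unadjusted p under 0.05, and DESeq2 called 25. In Xcr1-positive cells 3 of 11378 (0.0264%) were called. Pianp (log2 fold change -1.74) and Qpct (-2.004) fell, each with an adjusted p of 0.0444. The third is a predicted gene. The levels of both genes at onset are those given above, and no onset library reached a D0 library. Ccl9 was the gene with the smallest p among those with higher values (log2 fold change 2.72, adjusted p = 0.576).

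Progression was compared with onset, a contrast that takes no D0 level. The D0 libraries were part of the same fit, its gene filter and its estimate of spread. In protocol A, Xcr1 was detected in 43.9% (D3) and 65.0% (D5) of the chosen cells, then in 42.3% (D9), 15.2% (D19) and 21.7% (D25). In protocol B it was 84.5% and 84.3%, then 68.9%, 64.4% and 83.6% on the same days. The part of this makeup in the stage differences of all chosen cells given here and below was not tested. No gene was called in the chosen cells or in Xcr1-positive cells (0% of 12500 and of 11378) by edgeR, with 1496 and 1140 at an unadjusted p under 0.05, while DESeq2 called 151 in the chosen cells. Of the genes with the smallest p, Mmp12, macrophage elastase, was at 20.02 to 89.0 CPM at onset and 51.0 to 658 in progression (log2 fold change 2.33, adjusted p = 0.203), and Gstm3, a glutathione transferase, at 0.82 to 1.41 and then 5.33 to 17.2 (2.87, adjusted p = 0.184). Among lower values, Cd180, a Toll-like receptor homologue, was at 107 to 145 CPM and then 53.4 to 81.6 (log2 fold change -0.91, adjusted p = 0.203), and Nlrc5, the transactivator of MHC class I genes, at 17.1 to 27.8 and then 5.42 to 13.7 (-1.26, adjusted p = 0.203). Onset and progression did not overlap for Gstm3, Cd180 and Nlrc5, which had been picked for their small p. The share of all genes tested that separate in this way was not counted. Lrg1, Fcrls and Pink1 (higher) and Mup3, Serpina1e and Apobr (lower) were the others of this group. In Xcr1-positive cells Hilpda, Fbxo32, Gabrp, Wfdc18 and Msln (higher) and Mup3, Ccl22, Cd180, Fndc7 and Jaml (lower) had the smallest p. Gabrp, Wfdc18 and Msln are known from epithelium. All 7 biliary genes were higher in progression in both protocols, with medians of 3.97 in A and 0.78 in B in the chosen cells and 6.98 and 0.97 in Xcr1-positive cells, and their part in these values was not tested.

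Of the cell cycle list, genes of DNA replication and mitosis, 35 of 35 tested members had a lower value in progression, with a median log2 fold change of -0.90, whereas 6005 of 12500 genes did. Within both protocols 34 of 35 were lower (97.1%, beside 32.7% of all genes), and in Xcr1-positive cells 32 of 34 (94.1%, beside 32.2%), with a median of -0.93 in the fit over both protocols. Top2a, a topoisomerase of dividing cells, was at 165 and 264 CPM on D3 (A and B), 75.8 and 104 on D5 and 17.2 to 107 in progression (log2 fold change -1.47, SE 0.51, adjusted p = 0.328). The share of chosen cells with a Mki67 or Top2a UMI, after thinning to 1500 UMIs, was 10.1% (D3 A), 18.4% (D3 B), 9.11% (D5 A) and 10.2% (D5 B) at onset and 3.73% to 10.7% in progression, where D25 B alone reached the onset values. The means were 12.0% ± 4.35 (SD, n = 4) and 6.36% ± 2.51 (SD, n = 6), a difference of -5.61 percentage points (2-sided exact permutation within protocol, p = 0.02, smallest possible 0.01). Within protocol A the means were 9.59% and 4.83%, and within protocol B 14.3% and 7.89%. Unthinned, the shares were 20.1% to 38.8% and 11.2% to 34.4% (exact permutation p = 0.19), and in Xcr1-positive cells the thinned difference was -3.66 points (exact permutation p = 0.23). Without D3 B the difference was -3.44 points (exact permutation p = 0.125), and without D3 A, D5 A, D9 A, D19 A or D25 A the exact permutation p was 0.05.

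Ccl22, a chemokine of mature dendritic cells and a ligand of Ccr4, was at 3.49 and 31.9 CPM at D0, at 210 and 149 on D3 (A and B), 255 and 200 on D5, and at 9.26 to 87.8 in progression with a median of 18.9. Onset libraries lay above all the others. In Xcr1-positive cells D9 A, at 148 CPM, overlapped with D3 B, at 90.9, and the log2 fold change from onset to progression was -2.13 (SE 0.44, adjusted p = 0.236). In all chosen cells Ccl17, the other Ccr4 ligand, was at 0.87 and 64.2 CPM at D0. It was at 110 on D3 A, 1.23 on D3 B, 66.1 and 101 on D5 and 4.10 to 27.9 in progression. The maturation and costimulation list had 20 of 32 members lower in both protocols (62.5%, beside 32.7%). In Xcr1-positive cells it was 13 of 29 (44.8%, beside 32.2%), with 7 higher and medians of -0.02 in A and -0.25 in B. Cells with over 1 UMI of Fscn1, a gene of mature dendritic cells, were left out by the rule.

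The MHC class I and cross-presentation list had 17 of 21 members lower in progression in both protocols (81.0%, beside 32.7% of all genes) and 1 higher, with medians of -0.65 in A and -0.32 in B, and in Xcr1-positive cells 16 of 21 were lower, beside 32.2%. Psmb8, an immunoproteasome subunit, was at 371 to 527 CPM at onset and 108 to 507 in progression in all chosen cells. The cDC1 identity list had 19 of 25 lower, beside 32.7%, a list that holds the genes of the rule. The heme, iron and antioxidant list had 19 of 26 members higher in both protocols (73.1%, beside 36.3% of all genes; 17 of 25 beside 33.1% in Xcr1-positive cells), with medians of 0.92 in A and 0.33 in B. Hmox1, heme oxygenase, was at 84.1 to 190 CPM at onset and 139 to 1302 in progression, and Mt1 at 279 to 482 and then 462 to 1338. All 8 macrophage genes were also higher in both protocols, and their summed level is given above.

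To ask which DDC changes differed between types of dendritic cells, the change was compared with that of Cd209a-chosen DC, cells with at least 2 Cd209a UMIs and at most 1 of Xcr1 and Clec9a, with the other limits as before (3831 in the atlas). The interaction of cell type and stage was tested with the library as a block, and 4 of 13065 genes (0.0306%) were called for DDC against steady state. Ccl9 rose more in the chosen cells by a log2 difference of 2.65 (SE 0.34, adjusted p = 0.00557). In Cd209a-chosen DC it was at 314 and 119 CPM at D0 and 158 to 372 during DDC, so that its level there was higher than in the chosen cells in each library. Plaur, the urokinase receptor, differed by 1.83 (SE 0.25, adjusted p = 0.00764). It was at 15.7 and 37.3 CPM at D0 and 14.2 to 109 during DDC in the chosen cells, and at 107 and 337 and then 61.5 to 171 in Cd209a-chosen DC. Mt1 differed by 1.45 (SE 0.23, adjusted p = 0.0289), with 281 and 269 CPM at D0 and 279 to 1338 during DDC in the chosen cells, against 1229 and 860 and then 305 to 1525. The D0 levels of Mt1 and Plaur were higher in Cd209a-chosen DC, while the ranges over the DDC libraries overlapped. Compared within each library, Xcr1-positive cells lay below Cd209a-chosen DC for both genes in all 12 libraries. Ifitm1, an interferon-induced membrane protein, differed by -3.24 (SE 0.49, adjusted p = 0.0182). It was at 69.0 and 21.7 CPM and then 11.8 to 105 in the chosen cells, but went from 32.4 and 61.6 to 219 to 1082 in Cd209a-chosen DC.

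These calls rested on the D0 libraries in part. Without D0 A, Ccl9 (2.29, adjusted p = 0.105) and Ifitm1 (-2.15, adjusted p = 0.132) were not called, without D0 B Plaur was not (1.26, adjusted p = 0.635), and Mt1 was lost without either of them and without D3 A, D3 B, D5 A, D9 A, D19 A, D19 B or D25 B (adjusted p 0.0549 to 0.438). With Xcr1-positive cells 10 of 12485 genes (0.0801%) were called. All 4 genes passed again, with adjusted p of 0.0359 for Ccl9, 0.0197 for Plaur, 0.0336 for Mt1 and 0.0336 for Ifitm1. Within protocol B, a fit that holds 1 D0 library, Ccl9 and Plaur passed in these cells, and Ifitm1 (-2.59) and Mt1 (0.9985) did not. Mt2 (2.56, adjusted p = 0.0197), the antifungal lectin Clec7a (1.28, adjusted p = 0.0253), the interleukin-1 receptor antagonist Il1rn (2.79, adjusted p = 0.0336), the actin-capping protein Capg (2.51, adjusted p = 0.0488) and the repressor Bhlhe40 (1.03, adjusted p = 0.0488) were called with a higher change in Xcr1-positive cells, and Mospd1 with a lower one (-2.30, adjusted p = 0.0488). Clec7a was at 75.2 and 47.0 CPM at D0 and 80.9 to 577 during DDC in Xcr1-positive cells. In Cd209a-chosen DC it was at 505 and 499 and then 315 to 950. Macrophages express Clec7a, Capg and Il1rn too, and the part of the macrophage genes in these calls and in that of Ccl9 was not tested.

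**Figure D4:**
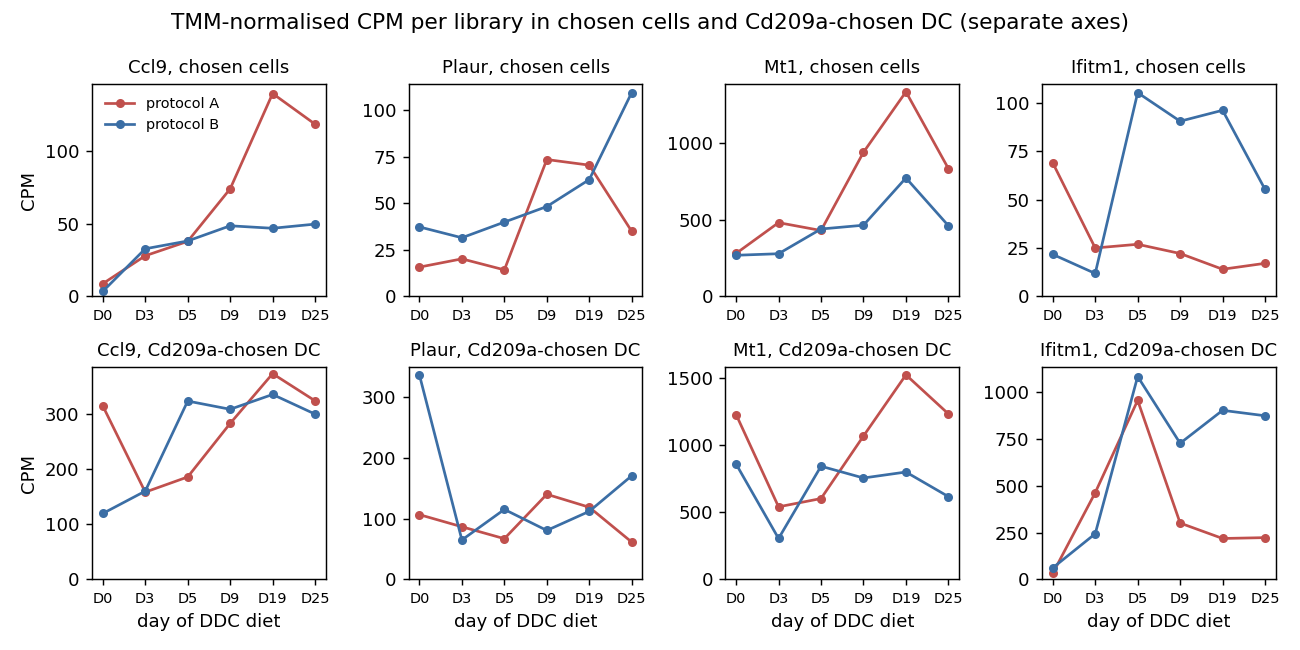
TMM-normalised CPM (y axes from 0, separate for each panel) of Ccl9, Plaur, Mt1 and Ifitm1 by day of DDC diet (x axis) in all chosen cells (top) and in Cd209a-chosen DC (bottom), protocol A in red and protocol B in blue, each point 1 library. Ccl9 in the chosen cells starts at 8.73 and 3.46 CPM, below the 119 to 372 CPM of Cd209a-chosen DC, and Ifitm1 in Cd209a-chosen DC is at 219 to 1082 CPM during DDC.

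For progression against onset the interaction gave no call among 13065 genes (0%) by edgeR, with 1018 at an unadjusted p under 0.05 and 27 calls by DESeq2. The cell cycle list had a positive difference in 35 of 35 members (median 0.58, against 0.02 over all genes), that is, its levels were lower in progression by less in the chosen cells than in Cd209a-chosen DC. The thinned share of cells with Mki67 or Top2a went the other way, with 11.9% at onset and 9.33% in progression in Cd209a-chosen DC against 12.0% and 6.36% in the chosen cells, and this difference was not tested. The maturation and costimulation list had a negative difference in 31 of 33 over all chosen cells (median -0.65, against 0.02 over all genes). Among Xcr1-positive cells, 13 of 29 members of this list were lower in progression in both protocols and 7 higher, as given above. Cd40, the costimulatory receptor for T-cell help, had a difference of -1.45 (SE 0.27, adjusted p = 0.0884), and of -1.47 with Xcr1-positive cells (adjusted p = 0.137). It was at 17.3 to 23.7 CPM at onset and 4.92 to 12.3 in progression in the chosen cells, and at 25.3 to 45.6 and then 26.0 to 69.8 in Cd209a-chosen DC. Irf4, a transcription factor of cDC2, had -1.87 (adjusted p = 0.0863) and lay at 6.54 to 12.4 and then 0 to 5.16 CPM in the chosen cells. Neither passed the threshold.

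The number of chosen cells as a share of these and Cd209a-chosen DC was compared between stages. In protocol B it was 58.4% at D0, 41.5% on D3, 33.0% on D5, 32.2% on D9, 43.0% on D19 and 63.0% on D25, each with an exact 95% binomial interval plotted per library. In protocol A it was 80.1%, 74.5%, 58.1%, 63.1%, 86.0% and 82.1% on the same days. These shares hold the chosen cells without Xcr1, most of which carried endothelial UMIs in protocol A, and which were 156 of 184 in D19 A and 126 of 161 in D25 A. Both protocols were lowest on D5 or D9. The difference between DDC and steady state was -11.6 percentage points (2-sided exact permutation within protocol, p = 0.306, smallest possible 0.0278), and between progression and onset 9.78 points (exact permutation p = 0.22). With Xcr1-positive cells the shares of protocol A were 41.9% to 56.3% and the differences -11.9 (exact permutation p = 0.139) and 0.09 points (exact permutation p = 1.0). Without D0 A the first difference was -0.73 points and without D0 B -22.5. No difference in share larger than the spread between libraries was detected. The sorting gates of each protocol can set this share, and DC that enter or leave the liver and a gain or loss of the marker genes cannot be told apart.

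**Figure D5:**
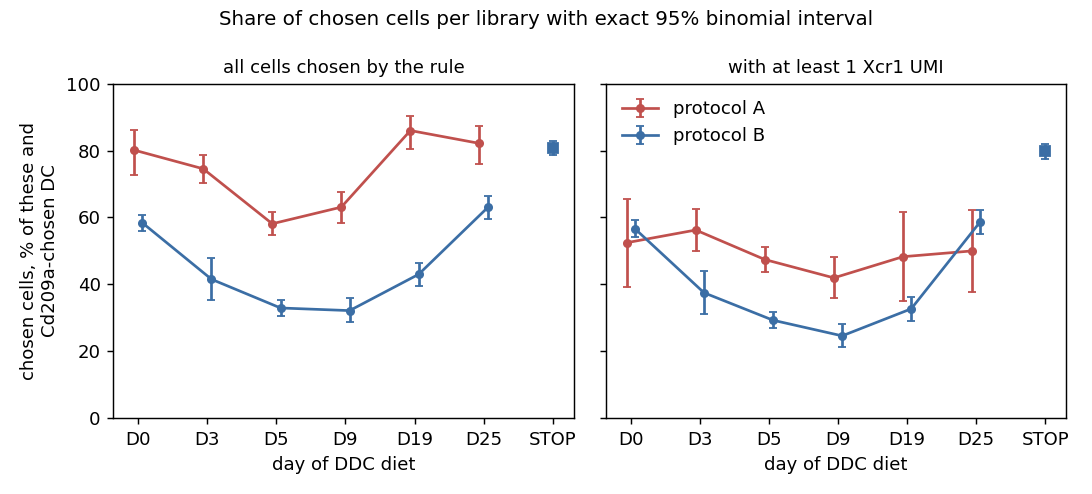
Chosen cells as a percentage of chosen cells and Cd209a-chosen DC (y axis) by day of DDC diet and in STOP (x axis), with exact 95% binomial intervals that cover counting error only, for all chosen cells (left) and Xcr1-positive cells (right), protocol A in red and protocol B in blue. Protocol B is at 58.4% at D0, 32.2% on D9 and 63.0% on D25, and STOP is at 80.8%.

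The recovery library held 1076 chosen cells, of which 94.3% had Xcr1, and the chosen cells made up 80.8% (exact 95% interval 78.6% to 82.9%) of the 2 types, above every atlas library of protocol B. It has no replicate, so that its plain CPM are set beside protocol B libraries with exact 95% Poisson intervals and no test. Of 776 genes with at least 200 CPM in STOP or D19 B, the intervals were apart for 516, of which 308 were higher in STOP. Against D25 B it was 578 of 788, of which 252 were higher. In Xcr1-positive cells it was 476 of 757 (285 higher) and 554 of 777 (248 higher). Pianp and Qpct, which fell under DDC in Xcr1-positive cells, stood higher after recovery over all chosen cells. Of these, 64.4% had Xcr1 in D19 B and 83.6% in D25 B. Pianp was at 74.8 CPM in D0 B, 25.5 in D19 B, 27.7 in D25 B and 87.7 (82.9 to 92.7) in STOP. Qpct was at 133, 31.3, 41.6 and 68.2 CPM (63.9 to 72.6) in this order, and Tlr12 at 31.1, 12.2, 11.4 and 53.7 (49.9 to 57.6). In plain CPM, STOP was above both late DDC libraries for the 3 genes, and above D0 B for Pianp and Tlr12. D0 B stood lower in plain CPM than in the TMM-scaled levels given above for Tlr12, Hspa1b, Ccl9 and Mt2. STOP was not scaled by TMM, and whether its order against D0 B for Pianp, Tlr12 and Hspa1b depends on the scaling was not tested.

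Hspa1b was at 187 CPM in D0 B, 28.9 in D19 B, 67.5 in D25 B and 177 (170 to 184) in STOP. Ccl9 was at 2.30, 51.5, 45.4 and 33.2 CPM (30.3 to 36.3), Trem2 at 2.42, 192, 95.8 and 48.1 (44.6 to 51.9) and Mt2 at 4.85, 101, 54.3 and 33.3 (30.3 to 36.4). These 3 lay below the late DDC libraries and above D0 B. The part of macrophage genes in these levels was not tested. Apol7c was at 46.1, 0.67, 0.11 and 9.92 CPM (8.35 to 11.7).

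Beside Xcr1, the largest ratios of STOP to D19 B over all chosen cells were those of the iron regulator Hfe (328 against 120 CPM) and the interferon-induced Ifi27l2a (310 against 124). Nr4a3 (251 against 114) and Cd81 (409 against 186) came next. Xcr1, a gene of the rule, was at 512 against 195 CPM, with 94.3% of the cells in STOP and 64.4% in D19 B positive for it, which is a description. The lowest were those of Lars2 (50.1 against 409 CPM), Lpl (78.1 against 299), Lcn2 (113 against 306), Neat1 (582 against 1463) and Wfdc17 (318 against 798). Against D25 B the largest were Ehd3 (224 against 35.0), Ptprb (397 against 73.9), Dnase1l3 (1675 against 316), Ccl4 (951 against 256) and Maf (349 against 96.4), and the lowest Cxcl5 (11.5 against 256), Wfdc18 (37.4 against 214), Lcn2 (113 against 476), Oaz1 (276 against 852) and H2az1 (294 against 856). Ehd3 and Ptprb are genes of endothelium, whose 5 genes summed to 416 CPM in STOP and 76.4 in D25 B. At least 3 UMIs of these 5 genes were found in 23.4% of the chosen cells of STOP and 5.92% of those of D25 B. Lcn2 and Cxcl5 are known from epithelium, and 7 biliary genes were at 2786 CPM in STOP, 3081 in D19 B and 4726 in D25 B. The part of endothelial and biliary genes in these ratios, those of Dnase1l3 and Maf included, was not tested. In Xcr1-positive cells the largest ratio to D19 B was that of Dnase1l3 (1595 against 534 CPM), followed by Hfe (332 against 128). To D25 B it was that of Ehd3 (203 against 29.1).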

How the data were processed

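Raw counts of UMIs, not normalized, were deposited as 1 matrix of genes and barcodes for each library, which held 630081 to 1700435 barcodes. The submitters' processing notes name kallisto and the genome build GRCm38, and the version of kallisto is not given in the sources used here. Barcodes that reached 1500 UMIs were taken as cells. Members were chosen by raw UMIs, and their counts were summed per library, with at least 20 cells, in Python 3.11.15. Library totals and cells per library, given in the report, set the precision, and intervals cover counting error only.

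Sums were fitted with edgeR 4.0.16 (R 4.3.3): TMM, filterByExpr by stage, the quasi-likelihood test with stage and protocol as terms over 12 libraries, and Benjamini-Hochberg adjustment over all genes tested at 0.05. The standard error is the size of the log2 fold change divided by the square root of F. The interaction model held the library as a block. Shares were compared by exact permutation within protocol, for Mki67 or Top2a after thinning each cell to 1500 UMIs. The code was tested on simulated data. The alternatives were DESeq2 1.42.0, RLE normalization, no filter on low counts, other cell rules (at least 3 UMIs, thinned cells, removal of cells of other lineages), each protocol alone and leaving out each library. Xcr1-positive fits were added after seeing the data.

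Named genes are those called (10 per direction, with mean log2 CPM from 5 upward, and fewer called genes in full whatever their level), where none was called the 5 with the smallest p, and called members of the lists. Predicted, mitochondrial and ribosomal genes and markers of other lineages were left out. Other genes named in the text are list members or genes chosen after their values were seen. For recovery, the 5 largest ratios each way among genes of at least 200 CPM with separate intervals are named. The members, gene lists and comparisons were chosen with earlier results of these data known.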

Additional observations from a re-analysis of the deposited data

Results flagged for a closer look

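Some values stood apart from the other libraries of their stage by Dixon's criterion, which was applied to 68 sets of 4 or 6 libraries and which chance meets in about 1 of 20 sets. There were 6 such values. The thinned share of chosen cells with Mki67 or Top2a was 18.4% in D3 B, against 9.11% to 10.2% in the other onset libraries, and the difference between stages was smaller without it. Ifitm1 was at 105 CPM and Cd209d at 5.83 CPM in D5 B, and Ctrb1, a pancreatic protease gene, at 42.1 CPM in D3 B. In progression, Mup3 was at 1.23 CPM in D9 A and Gstm3 at 17.2 CPM in D19 A, the library with the highest summed macrophage genes.

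The change from steady state to DDC differed between the chosen cells and Cd209a-chosen DC, by the test of the interaction, for Ccl9 (log2 difference 2.65), Plaur (1.83), Ifitm1 (-3.24) and Mt1 (1.45).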

How the results depend on the processing

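For DDC against steady state, where 3 genes were called, DESeq2 called 118, no filter on low counts gave 517, a rule of at least 3 UMIs 7, Xcr1-positive cells 14, those without endothelial UMIs 19, no protocol term 0, protocol A 13 and protocol B 1718 (7 and 1385 in Xcr1-positive cells). Leaving out libraries gave 1 to 1552 calls, 1552 without D0 A, 22 without D0 B, 8 without D9 A, 5 without D19 A and 1 without D9 B. For onset against steady state, with 0 calls, DESeq2 gave 25, no filter 270, Xcr1-positive cells 3, those without endothelial UMIs 2, protocol A 11 and protocol B 433 (14 and 357 in Xcr1-positive cells), and leaving out libraries 0 to 386, with 386 without D0 A and 25 without D0 B. For progression against onset, with 0 calls, DESeq2 gave 151, no filter 783, removal of cells of other lineages 1, Xcr1-positive cells of protocol A 81, and leaving out libraries 0 to 7, with 7 without D9 A and 1 without D0 A, D0 B or D5 B. For the difference from Cd209a-chosen DC in the DDC change, with 4 calls, DESeq2 gave 11, no filter 77, Xcr1-positive cells 10, those of protocol B 7, and leaving out libraries 2 to 5, with 2 without either D0 library. For the difference in the progression change, with 0 calls, DESeq2 gave 27, no filter 244 and leaving out libraries 0 to 22, with 22 without D5 B and 2 without D9 A. The cause of these shifts was not tested. The difference in the Mki67 or Top2a share was -5.59 points without thinning, -3.66 in Xcr1-positive cells and -6.56 to -3.44 when leaving out libraries. The differences in the share of chosen cells kept their direction and side of the threshold under the alternatives tried. For progression against onset they were 3.50 to 17.4 points when leaving out libraries. For DDC against steady state, some alternatives could not have changed side, because the exact permutation test could not reach the threshold. Its smallest possible p was 0.0556 with at least 3 UMIs for both types, and 0.1667 without D0 A or without D0 B. Ccl9, Mup3, Serpina1e, Pianp and Qpct (DDC change) and Ccl9, Plaur, Ifitm1 and Mt1 (difference from Cd209a-chosen DC) kept their direction in the alternatives that could test them, whereas the balance of DDC calls turned from 1 higher and 2 lower to 1017 and 701 in protocol B and 947 and 605 without D0 A, and the MHC class II and cell cycle lists had medians of opposite sign in the protocols. No paired analysis was possible because the labels give no number that ties libraries of different stages to 1 mouse or batch. The protocol stood as a term, and mice shared by the A and B libraries of a day, on which the labels are silent, could not be modelled. With 2 libraries at steady state, 1 of them with 32 Xcr1-positive cells, calls against steady state rest on few cells.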
